A study of Mus musculus with 12 samples.

Results

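The genes described here are 9 genes whose transcripts are abundant in neutrophils: S100a8, S100a9, Csf3r, Il1r2, Retnlg, Mmp8, Ltf, Ngp and Camp. They were chosen by symbol, matched 1 to 1 to the Ensembl identifiers of the count files, and are 9 of the 40551 genes counted. Each gene was followed through total RNA-seq libraries of 12 mouse livers, 3 from each of 4 genotypes. WT livers carried both genes of interest. Mcl1 KO livers (Mcl1Δhep mice, made with an Alb-Cre transgene and floxed Mcl1 alleles) lacked the survival gene Mcl1 in hepatocytes, the cells in which the albumin promoter drives Cre, so neutrophils themselves were not the target of the deletion. Sting1 KO livers came from mice that lacked Sting1, the adaptor of cytosolic DNA sensing, in all cells, and Mcl1 Sting1 DKO livers carried both changes. The labels give no age or sex for the mice. Whole liver was sequenced, so fewer neutrophils and less RNA per neutrophil cannot be told apart in any value below.

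Neutrophils are short-lived phagocytes that are made in the bone marrow, leave it fully formed and enter injured tissue from the blood. Their granule proteins are transcribed in waves during maturation. Primary granule enzymes come first in promyelocytes, proteins of the specific granules such as lactoferrin and cathelicidin follow in myelocytes, and gelatinase granule proteins come last. Blood and tissue neutrophils keep high levels of the calprotectin transcripts S100a8 and S100a9 and of receptors such as Csf3r and Il1r2, while granule transcripts are largely switched off. In the resting liver they sit in the sinusoids in small numbers, and they gather there when hepatocytes die.

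The authors deposited whole-number read counts per gene, and between 28826367 and 45266387 reads were counted per library. Values are given below as counts and as CPM, counts scaled to a common library size with edgeR's TMM factors. Mcl1 itself, which checks the labels, fell from a mean of 98.6 CPM in WT to 29.0 in Mcl1 KO livers and stood at 22.3 in Mcl1 Sting1 DKO and 81.8 in Sting1 KO livers. Sting1 was not lower in the libraries labelled Sting1 KO than in WT beyond the spread between livers (1.86 against 2.36 CPM, log2 difference -0.34, edgeR adjusted p = 0.998), so the counts did not show that deletion there. Sting1 stood higher in Mcl1 KO livers (3.67 to 6.0 CPM) than in Mcl1 Sting1 DKO (1.90 to 2.53) and WT livers (2.11 to 2.53). For its Sting1-null mice the paper reports the knockout by Western blot of splenocytes, a measure of protein and not of RNA. In these libraries, every direction drawn for Sting1 below rests on the labels. Y-linked genes stood at 7.16 to 7.21 log2 CPM in WT replicates 2 and 3 and Mcl1 Sting1 DKO replicate 1, and at no more than 0.38 in the other 9 libraries. Mcl1 KO replicate 3 also held skeletal muscle transcripts (977 summed CPM of 4 muscle genes, with no more than 5.52 elsewhere).

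The 9 genes lie on 5 chromosomes of GRCm39 (GENCODE vM39). S100a8 (chromosome 3, 90567118 to 90578128, plus strand) and S100a9 (chromosome 3, 90599931 to 90603071, minus strand) are neighbours, 21802 bases apart. Mmp8 (7558457 to 7568487, plus strand), Camp (109676442 to 109678685, minus strand), Ngp (110248815 to 110252086, plus strand) and Ltf (110848339 to 110871835, plus strand) are all on chromosome 9, and the last 3 lie within 1.2 Mb of each other. Retnlg is on chromosome 16 (48692547 to 48694862, plus strand), Csf3r on chromosome 4 (125918262 to 125938236, plus strand) and Il1r2 on chromosome 1 (40113239 to 40164391, plus strand). Il1r2 was the only one overlapped by other counted genes, Gm16894 with 0 and Gm37347 with 2 counts in all 12 libraries together, so overlap added almost nothing to the counts of the 9 genes.

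The 250 bases before the start of transcription were read from RefSeq promoters of GRCm38.p6 for the calprotectin pair and for a pair of granule genes, to set the letters before genes of the cytosol beside those before genes of the granules. Capitals mark 3 words searched on both strands: TTGCNNAA, a form of the site of C/EBP factors, which drive granule genes in maturing neutrophils, GAGGAAGT, a form of the site of PU.1 (the product of Spi1), which specifies myeloid cells, and TATAAA, the TATA box. The words were picked with the sequences in view, and no matches overlapped.
S100a8 (chr3:90668821-90669070, plus strand): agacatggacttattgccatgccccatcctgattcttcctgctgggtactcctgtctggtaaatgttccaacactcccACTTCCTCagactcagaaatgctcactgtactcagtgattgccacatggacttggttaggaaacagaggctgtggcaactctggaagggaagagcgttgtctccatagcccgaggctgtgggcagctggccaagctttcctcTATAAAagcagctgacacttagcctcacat
S100a9 (chr3:90695722-90695971, minus strand): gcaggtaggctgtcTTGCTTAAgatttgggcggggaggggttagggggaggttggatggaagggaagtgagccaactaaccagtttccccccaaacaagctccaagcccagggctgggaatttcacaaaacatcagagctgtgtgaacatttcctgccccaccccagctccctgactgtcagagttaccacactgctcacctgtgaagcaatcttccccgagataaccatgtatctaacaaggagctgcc
Mmp8 (chr9:7558179-7558428, plus strand): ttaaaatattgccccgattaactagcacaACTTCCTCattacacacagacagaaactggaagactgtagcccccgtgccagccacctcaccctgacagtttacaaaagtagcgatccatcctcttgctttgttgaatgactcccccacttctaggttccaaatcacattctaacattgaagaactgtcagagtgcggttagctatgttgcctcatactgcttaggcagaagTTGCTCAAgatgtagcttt
Ltf (chr9:111019042-111019291, plus strand): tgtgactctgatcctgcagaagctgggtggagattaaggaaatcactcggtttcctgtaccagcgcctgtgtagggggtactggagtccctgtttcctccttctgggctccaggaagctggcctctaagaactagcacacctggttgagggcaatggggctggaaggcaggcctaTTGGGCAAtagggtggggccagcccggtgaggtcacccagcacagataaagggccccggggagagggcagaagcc

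TTGCNNAA stood in the windows of 5 of the 9 genes (S100a9, Mmp8, Ngp, Ltf and Retnlg) and in 9.56% of 32851 RefSeq promoter windows of the same length. Mmp8 held it at -19 to -12 from the start, Ltf at -75 to -68, and S100a9 at -236 to -229. GAGGAAGT, printed above as its reverse complement, stood in 2 of the 9 (S100a8 at -172 to -165 and Mmp8 at -221 to -214) and in 2.44% of all windows. TATAAA was found in 1 of the 9, S100a8 at -30 to -25, and in 12.4% of all windows. These matches describe letters in a short window and say nothing of binding.

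The label of the gene group was checked against defining markers of neutrophils. Ly6g, the surface protein by which mouse neutrophils are usually identified, had 0 counts in 9 of the 12 libraries, and its counts elsewhere were 1 and 3 in Mcl1 KO replicates 2 and 3 and 1 in Mcl1 Sting1 DKO replicate 2. The promyelocyte enzymes Mpo, Elane and Ctsg were at 0 to 7 counts per library. Prtn3, another enzyme of this kind, had more, 4 to 53 counts per library with the most in WT replicate 2. A library with 0 counts could hold up to 3 counts, or 0.0621 to 0.1 CPM depending on its depth, which covers counting error only. The 9 genes are therefore called by their names below, and a number of neutrophils is not read from them.

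All 9 genes were detected in every genotype at low levels. Together they held 102 to 338 counts per library in Sting1 KO, 119 to 161 in WT, 200 to 311 in Mcl1 Sting1 DKO and 349 to 812 in Mcl1 KO livers. Compared between genes per transcript length (TPM, which divides counts by summed exon length and sets each library to the same total), S100a8 and S100a9 led in every genotype. In WT livers S100a8 had a mean of 3.59 TPM and S100a9 3.13, followed by Csf3r at 0.995 and Retnlg at 0.960, and in Mcl1 KO livers S100a9 (15.9) stood before S100a8 (12.9), Retnlg (3.0) and Csf3r (1.97). Within both pairs the ranges of the livers overlapped, so their order was not set apart from the spread. The other 5 genes had means of 0.0691 to 0.355 TPM in WT and 0.426 to 1.30 in Mcl1 KO livers.

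**Figure D1:**
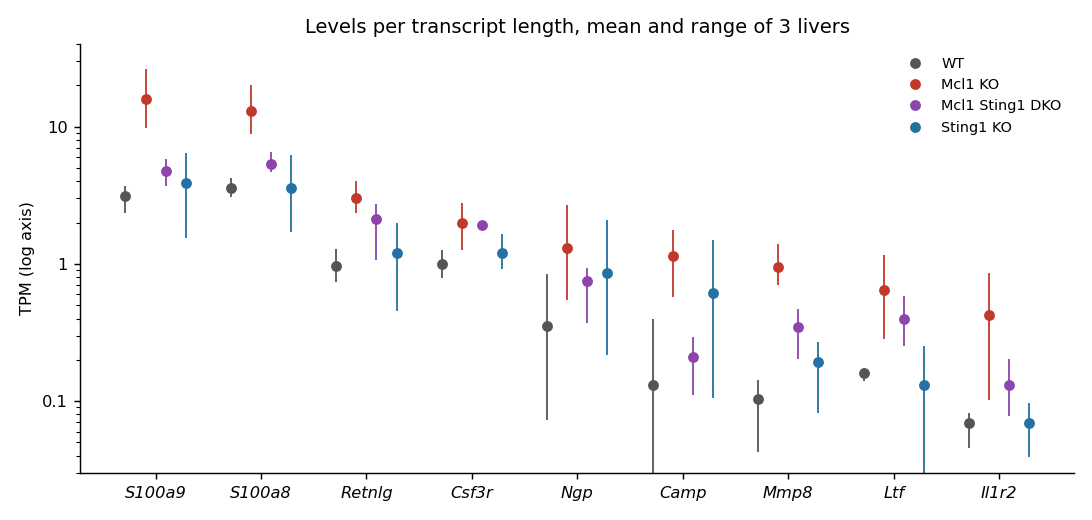
Levels of the 9 genes in TPM (log axis), with 1 point per genotype for the mean of 3 livers and a line from the lowest to the highest liver. Lines that reach the lower edge stand for livers at 0 (Camp in WT, Ltf in Sting1 KO), and the means of S100a9 and S100a8 lie above those of the other 7 genes in every genotype.

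S100a8 and S100a9 encode the subunits of calprotectin, a calcium- and zinc-binding protein that fills the neutrophil cytosol and is also made by monocytes. S100a8 had 30, 40 and 30 counts in WT replicates 1 to 3, 114, 210 and 86 in Mcl1 KO, 36, 66 and 49 in Mcl1 Sting1 DKO, and 17, 30 and 75 in Sting1 KO livers. In CPM these were 0.990 ± 0.198, 3.83 ± 2.25, 1.38 ± 0.206 and 1.03 ± 0.689 (mean ± SD, n = 3 each). All Mcl1 KO livers lay above all livers of the other genotypes, Mcl1 KO replicate 2 was the highest of the 12, and the Mcl1 Sting1 DKO and Sting1 KO ranges overlapped.

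S100a9 had 30, 41 and 41 counts in WT, 171, 358 and 124 in Mcl1 KO, 48, 76 and 48 in Mcl1 Sting1 DKO, and 20, 50 and 100 in Sting1 KO livers. The means were 1.12 ± 0.293, 6.14 ± 4.18, 1.59 ± 0.270 and 1.44 ± 0.921 CPM in that order. Mcl1 KO livers again did not overlap any other genotype, and the other 3 genotypes overlapped one another. Counts of S100a9 were 0.980 to 1.70 times those of S100a8 in each of the 12 libraries, with 1.44 to 1.70 in Mcl1 KO and 1.0 to 1.37 in WT livers.

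Csf3r encodes the receptor of granulocyte colony-stimulating factor, which drives the formation and release of neutrophils. It had 40, 46 and 56 counts in WT, 165, 102 and 64 in Mcl1 KO, 81, 101 and 94 in Mcl1 Sting1 DKO, and 47, 92 and 64 in Sting1 KO livers. Its means were 1.42 ± 0.40, 2.85 ± 0.733, 2.58 ± 0.123 and 1.78 ± 0.576 CPM. Unlike the calprotectin pair, Csf3r was about as high in Mcl1 Sting1 DKO as in Mcl1 KO livers, whose range took in all 3 of the former, and both lay above WT without overlap.

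Il1r2 encodes a decoy receptor that binds interleukin-1 without passing on a signal. It had 2, 2 and 1 counts in WT, 3, 23 and 8 in Mcl1 KO, 4, 3 and 2 in Mcl1 Sting1 DKO, and 1, 2 and 3 in Sting1 KO livers, and 1 liver, Mcl1 KO replicate 2, held 23 of the 34 Mcl1 KO counts. The summed counts of Mcl1 KO livers were 6.15 times those of WT livers per scaled read (exact 95% interval 2.39 to 20.1, counting error only).

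Retnlg encodes a secreted resistin-like protein found in bone marrow and blood neutrophils. Its counts were 8, 9 and 12 in WT, 34, 46 and 25 in Mcl1 KO, 9, 29 and 30 in Mcl1 Sting1 DKO, and 5, 14 and 26 in Sting1 KO livers. The means were 0.291 ± 0.0950, 0.967 ± 0.384, 0.609 ± 0.273 and 0.381 ± 0.241 CPM. Mcl1 KO livers lay above WT and Sting1 KO livers, and their lowest liver lay below 2 of the 3 Mcl1 Sting1 DKO livers.

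Mmp8 encodes neutrophil collagenase, a protease of the specific granules. It had 3, 1 and 3 counts in WT, 20, 36 and 18 in Mcl1 KO, 9, 9 and 5 in Mcl1 Sting1 DKO, and 2, 6 and 8 in Sting1 KO livers. In CPM the means were 0.0693 ± 0.0357, 0.695 ± 0.361, 0.219 ± 0.0819 and 0.137 ± 0.0702. Mcl1 KO livers did not overlap any other genotype, and Mcl1 Sting1 DKO livers lay between them and WT.

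Ltf encodes lactoferrin, the iron-binding protein of the specific granules. It had 5, 6 and 5 counts in WT, 48, 19 and 10 in Mcl1 KO, 7, 13 and 21 in Mcl1 Sting1 DKO, and 5, 0 and 11 in Sting1 KO livers, with means of 0.158 ± 0.0238, 0.630 ± 0.341, 0.375 ± 0.178 and 0.137 ± 0.133 CPM. Both groups with the Mcl1 deletion lay above WT without overlap, and they overlapped each other.

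Camp encodes cathelicidin, an antimicrobial peptide precursor stored in the same granules, and Ngp encodes a related neutrophil granule protein. Camp had 0, 0 and 3 counts in WT, 18, 10 and 5 in Mcl1 KO, 2, 1 and 2 in Mcl1 Sting1 DKO, and 2, 1 and 16 in Sting1 KO livers. Ngp had 1, 2 and 10 counts in WT, 43, 8 and 9 in Mcl1 KO, 4, 13 and 13 in Mcl1 Sting1 DKO, and 3, 4 and 35 in Sting1 KO livers. For both genes, Sting1 KO replicate 3 and Mcl1 KO replicate 1 stood out as the highest libraries, and for Ngp the ranges of all genotypes overlapped.

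**Figure D2:**
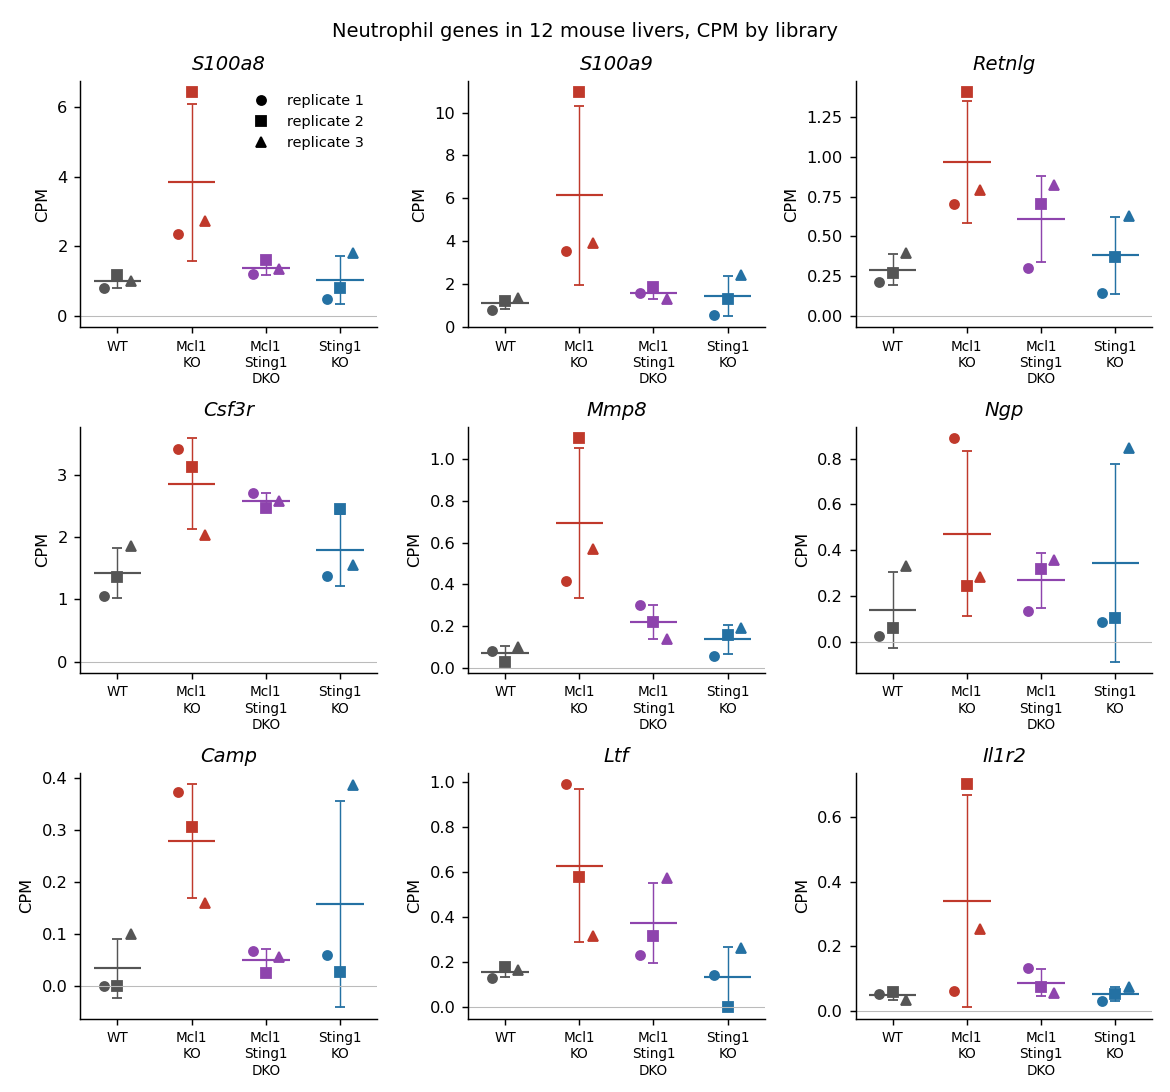
CPM of each of the 9 genes by genotype, with 1 marker per liver shaped by its replicate number, a horizontal line for the mean of 3 livers and a bar for 1 SD to each side. S100a8, S100a9 and Mmp8 show Mcl1 KO livers above all others, Csf3r shows both groups with the Mcl1 deletion above WT, and Sting1 KO replicate 3 is the highest of its group for 8 of the 9 genes.

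The comparison of Mcl1 KO with WT livers asked how the loss of Mcl1 in hepatocytes changed the liver while Sting1 was intact. S100a9 rose 5.47-fold (log2 2.45, SE 0.53, adjusted p = 0.0102), S100a8 3.86-fold (1.95, SE 0.48, adjusted p = 0.0174), Retnlg 3.31-fold (1.73, SE 0.54, adjusted p = 0.0419), and Csf3r 2.01-fold (1.01, SE 0.30, adjusted p = 0.0344). All p-values of this kind come from the quasi-likelihood test of edgeR and were adjusted by the Benjamini-Hochberg method. Mmp8 had the largest called difference, 9.57-fold (log2 3.26, SE 0.60, edgeR adjusted p = 0.00533), from 7 counts in the 3 WT livers together. The sizes of the calprotectin pair leaned on Mcl1 KO replicate 2, without which S100a9 differed by 1.74 and S100a8 by 1.36 on the log2 scale.

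Of the 8 genes that passed the filter on low counts, these 5 were called higher at an adjusted p under 0.05, while 10.8% of all 15070 tested genes were called higher in the same comparison. The median log2 difference was 1.97 over the 8 genes and -0.0049 over all tested genes. Mcl1 KO livers lay above WT livers without overlap for 7 of the 8 tested genes, Ngp being the exception, and for 16.2% of all tested genes. Passing the filter was not independent of this direction for all of them. Mmp8 and Ltf reached its cutoff of 0.267 CPM only in Mcl1 KO and Mcl1 Sting1 DKO livers, Camp only in 2 Mcl1 KO livers and 1 Sting1 KO liver, and Il1r2 in 2 Mcl1 KO livers, too few to be tested.

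Camp, Ltf and Ngp were not called. Their log2 differences were 3.10 (SE 1.10, edgeR adjusted p = 0.0645), 2.0 (SE 0.72, edgeR adjusted p = 0.0681) and 1.86 (SE 0.99, edgeR adjusted p = 0.196). Without 1 library the Camp difference ran from 2.49 (without WT replicate 1) to 6.40 (without WT replicate 3, which leaves WT at 0 counts, so that this value depends on the fit's prior count and is no bound), and that of Ngp from 0.98 (without Mcl1 KO replicate 1) to 3.43 (without WT replicate 3). For Camp, the 33 counts of Mcl1 KO and the 3 counts of WT livers gave a ratio of 9.95 per scaled read with an exact 95% interval of 3.12 to 50.7, for counting error only. Without the filter, Il1r2 differed by 2.67 (log2, SE 0.86, edgeR adjusted p = 0.0585).

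The share of reads on small structured RNAs (snRNA, snoRNA, scaRNA, misc_RNA and similar genes) moved with this comparison. WT replicates 1 to 3 had 0.0215, 0.0272 and 0.0679% of their reads there, and Mcl1 KO replicates 1 to 3 had 0.0335, 0.398 and 0.223%. Its part in the result was not tested beyond the fit that follows. With this share as a covariate the log2 difference was 1.53 for S100a9, 1.18 for S100a8, 2.45 for Mmp8, 1.25 for Retnlg and 1.04 for Csf3r, and edgeR called 0 of the 8 genes, 7 of which had an unadjusted p under 0.05. Over all genes the calls fell from 3050 to 543 in the same fit, and 2962 of 15070 genes had an unadjusted edgeR p under 0.05. With Y-linked expression as a covariate, S100a8, S100a9 and Mmp8 were called and Csf3r and Retnlg were not, while 2053 of all genes were called. Leaving out Mcl1 KO replicate 2, the library with the most S100a8 and S100a9, left 2 calls (S100a9 and Mmp8), and a fit without WT replicate 1, or without WT replicate 2, left 3 (S100a8, S100a9 and Mmp8). The calls over all genes were 1238, 2678 and 1233 in these 3 fits, in that order. S100a9 and Mmp8 were called in all 12 fits that left out 1 library, with edgeR adjusted p-values of at most 0.0431 and 0.0307.

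**Figure D3:**
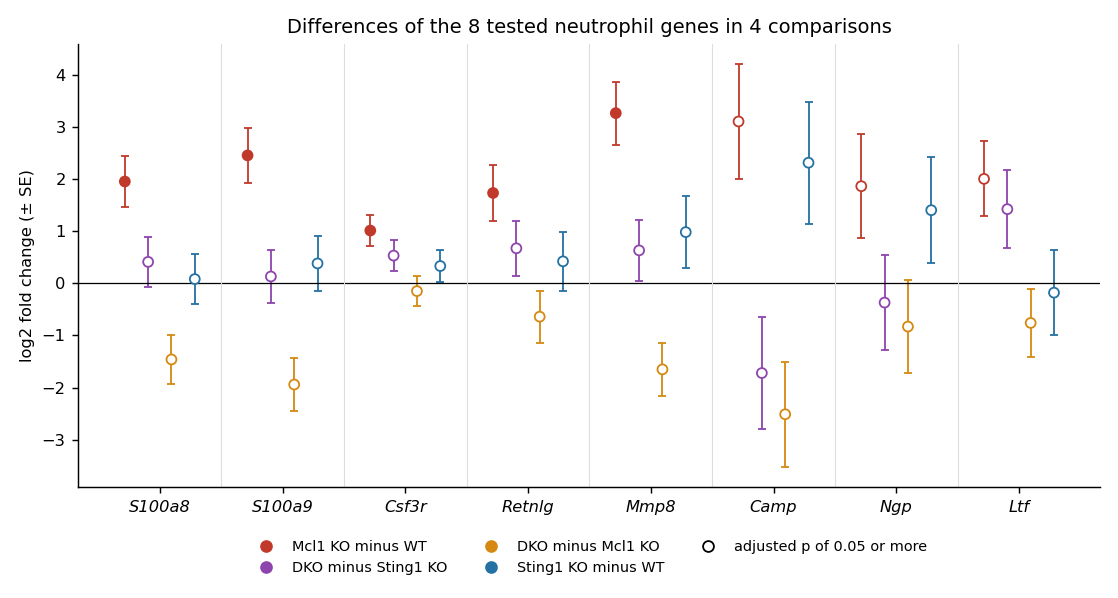
Log2 fold changes of the 8 tested genes in 4 comparisons, with bars of 1 SE and filled points for an edgeR adjusted p under 0.05. Filled points are those of S100a8, S100a9, Csf3r, Retnlg and Mmp8 in Mcl1 KO against WT livers, and the Mcl1 Sting1 DKO against Mcl1 KO differences (orange) lie below 0 for all 8.

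Removal of Sting1 from Mcl1-deleted livers (Mcl1 Sting1 DKO against Mcl1 KO) asked whether the changes that came with the Mcl1 deletion depended on Sting1. It shares its Mcl1 KO livers with the comparison above, so a high Mcl1 KO liver widens both differences. The calprotectin pair, Mmp8 and Camp were lower in each Mcl1 Sting1 DKO liver than in each Mcl1 KO liver, and Csf3r, Retnlg, Ltf and Ngp overlapped. None of the 8 was called by edgeR, which called 0.0% of all tested genes lower here. The log2 differences were -1.94 for S100a9 (SE 0.51, unadjusted p = 0.00265, edgeR adjusted p = 0.133), -1.46 for S100a8 (SE 0.47, unadjusted p = 0.00884, edgeR adjusted p = 0.150), -1.65 for Mmp8 (SE 0.51, unadjusted p = 0.00735, edgeR adjusted p = 0.145) and -2.51 for Camp (SE 1.01, unadjusted p = 0.0285, edgeR adjusted p = 0.197). Groups without overlap in this direction were found for 4 of the 8 genes and for 9.28% of all tested genes, and an unadjusted p under 0.05 for the same 4 of 8 and for 20.6% of all tested genes in either direction. The filter took part in this count as well, since Mmp8 reached its cutoff in 3 Mcl1 KO livers and 1 Mcl1 Sting1 DKO liver, and Camp in 2 Mcl1 KO livers and no Mcl1 Sting1 DKO liver.

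The other 4 genes differed less. Ngp differed by -0.83 (SE 0.90), Ltf by -0.76 (SE 0.65), Retnlg by -0.64 (SE 0.50) and Csf3r by -0.15 (SE 0.29) on the log2 scale. DESeq2, run on the same counts, called S100a9 (adjusted p = 0.00838) and S100a8 (adjusted p = 0.0457) lower, 2 of the 6 genes to which it gave an adjusted p, against 2.21% of all genes it tested. Mmp8, Camp and Il1r2 were left out by its own filter. The adjusted p-values of S100a9 ranged from 0.00838 to 0.459 and those of S100a8 from 0.0457 to 0.540 over DESeq2 and the other settings tried. Leaving out Mcl1 KO replicate 1 gave 3 edgeR calls (S100a8, S100a9 and Mmp8), in a fit that called 9.08% of all tested genes lower and 3108 of 15357 in either direction. Leaving out any other single library gave 0 calls among the 8 genes and at most 6 over all genes. Without Mcl1 KO replicate 2, S100a9 differed by -1.23 and S100a8 by -0.87. Mcl1 KO replicate 1 had the highest Ngp, Camp and Ltf counts of its group and the lowest S100a8 and S100a9 CPM.

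The Mcl1 deletion without Sting1 (Mcl1 Sting1 DKO against Sting1 KO) gave smaller differences. Csf3r was higher in each Mcl1 Sting1 DKO than in each Sting1 KO liver by a log2 difference of 0.53 (SE 0.29, edgeR adjusted p = 0.556), and the other 7 tested genes overlapped. Groups without overlap in this direction were found for 11.5% of all tested genes. Ltf differed by 1.42 (SE 0.74, edgeR adjusted p = 0.525), Retnlg by 0.67 (SE 0.52), Mmp8 by 0.63 (SE 0.58), S100a8 by 0.41 (SE 0.48) and S100a9 by 0.13 (SE 0.52). Camp and Ngp had negative differences, -1.72 (SE 1.07) and -0.37 (SE 0.92), against Sting1 KO livers of which replicate 3 held 16 of the 19 Camp and 35 of the 42 Ngp counts. None of the 8 passed the threshold by edgeR or DESeq2 and 0 had an unadjusted edgeR p under 0.05, where 11.3% of all tested genes had such a p and 0.677% were called higher by edgeR. Without Sting1 KO replicate 3, Camp and Ngp differed by 0.16 and 1.46.

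The difference between both Mcl1 effects was tested as an interaction, the effect without Sting1 minus the effect with Sting1. It was -4.82 for Camp (log2, SE 1.54, unadjusted p = 0.00872), -2.63 for Mmp8 (SE 0.86, unadjusted p = 0.00971), -2.32 for S100a9 (SE 0.73, unadjusted p = 0.00818) and -1.54 for S100a8 (SE 0.67, unadjusted p = 0.0414). No gene of the 8 was called (lowest edgeR adjusted p = 0.277), DESeq2 called 0 and gave Camp and Il1r2 no adjusted p, and 4 of 8 had an unadjusted edgeR p under 0.05 against 14.4% of all tested genes. Csf3r had one of the smallest values, -0.48 (SE 0.42), beside -0.58 for Ltf (SE 1.06). Camp and Mmp8 are among these 4, and both passed the filter mainly through Mcl1 KO livers. Without 1 library the value of Camp ran from -8.11 (without WT replicate 3, which leaves WT at 0 counts) to -2.94 (without Sting1 KO replicate 3). S100a9 stood at -1.60 and S100a8 at -0.94 without Mcl1 KO replicate 2, and at -1.72 and -0.85 without Sting1 KO replicate 3. Leaving out Mcl1 KO replicate 1 gave 1 call among the 8 genes, S100a9, in a fit that called 10.2% of all tested genes.

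Averaged over both Sting1 backgrounds, 6 of the 8 tested genes were called higher with the Mcl1 deletion, against 9.9% of all tested genes. Of these 6, Mmp8 and Ltf reached the cutoff of the filter only in livers with the Mcl1 deletion. Their entry into the test was thus not independent of this direction. Mmp8 rose 3.84-fold (log2 1.94, SE 0.42, edgeR adjusted p = 0.00995), Ltf 3.27-fold (1.71, SE 0.52, edgeR adjusted p = 0.0418), S100a9 2.45-fold (1.29, SE 0.37, edgeR adjusted p = 0.0319) and Csf3r 1.71-fold (0.77, SE 0.21, edgeR adjusted p = 0.0268). Retnlg (1.2, SE 0.38, edgeR adjusted p = 0.0482) and S100a8 (1.18, SE 0.34, edgeR adjusted p = 0.0328) also passed, and Ngp (0.74, SE 0.68) and Camp (0.69, SE 0.83) did not. These means can hide unlike parts. With and without Sting1 the log2 differences were 2.45 and 0.13 for S100a9, 1.95 and 0.41 for S100a8, and 2.0 and 1.42 for Ltf. Mmp8 was called in all 12 fits without 1 library. The count of calls was less steady, with 1 call without Mcl1 KO replicate 2, Mcl1 Sting1 DKO replicate 2, Sting1 KO replicate 1, WT replicate 1 or WT replicate 2, 2 without Mcl1 Sting1 DKO replicate 1 or WT replicate 3, 3 without Sting1 KO replicate 2, and 4 or 5 without each of the other 4 libraries. The calls over all genes ran from 1711 to 4267 in these 12 fits, against 2522 with all libraries. With the small structured RNA share as a covariate, 1 gene (Mmp8) and 1308 of all genes were called.

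Loss of Sting1 with Mcl1 intact (Sting1 KO against WT) gave no call for the 8 genes by edgeR or DESeq2, and 0 of 8 had an unadjusted edgeR p under 0.05, against 5.45% of all tested genes. The log2 differences were 0.08 for S100a8 (SE 0.49), 0.38 for S100a9 (SE 0.53), 0.33 for Csf3r (SE 0.30), 0.42 for Retnlg (SE 0.56), 0.98 for Mmp8 (SE 0.68) and -0.18 for Ltf (SE 0.82). Camp and Ngp had the largest values, 2.31 (SE 1.17) and 1.40 (SE 1.01). Both rested on Sting1 KO replicate 3, and without it Ngp differed by -0.44, S100a8 by -0.61, S100a9 by -0.22 and Retnlg by -0.15, in the opposite direction.

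The 9 genes did not rise in fixed proportion from liver to liver. Among Mcl1 KO livers, replicate 2 was the highest for 5 genes (S100a8, S100a9, Retnlg, Mmp8 and Il1r2) and replicate 1 for the other 4 (Csf3r, Ngp, Camp and Ltf). The granule transcripts Camp, Ngp and Ltf made up 27.7% of the counts of these 3 genes plus S100a8 and S100a9 in replicate 1 (109 of 394 counts, exact 95% interval 23.3 to 32.4%), 6.12% in replicate 2 (37 of 605, 4.34 to 8.33%) and 10.3% in replicate 3 (24 of 234, 6.68 to 14.9%). The interval of replicate 1 did not meet those of the other 2 livers of its genotype.

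Such spread was also present without the Mcl1 deletion. The share was 21.3, 5.88 and 26.2% in Sting1 KO, 9.09, 8.99 and 20.2% in WT, and 13.4, 16.0 and 27.1% in Mcl1 Sting1 DKO livers. All 4 genotypes overlapped in this share. They did not all overlap in the sum of the 9 genes, by which Mcl1 KO livers stood apart (11.0 to 24.8 summed CPM, against 2.97 to 8.16 in the other 9 livers).

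**Figure D4:**
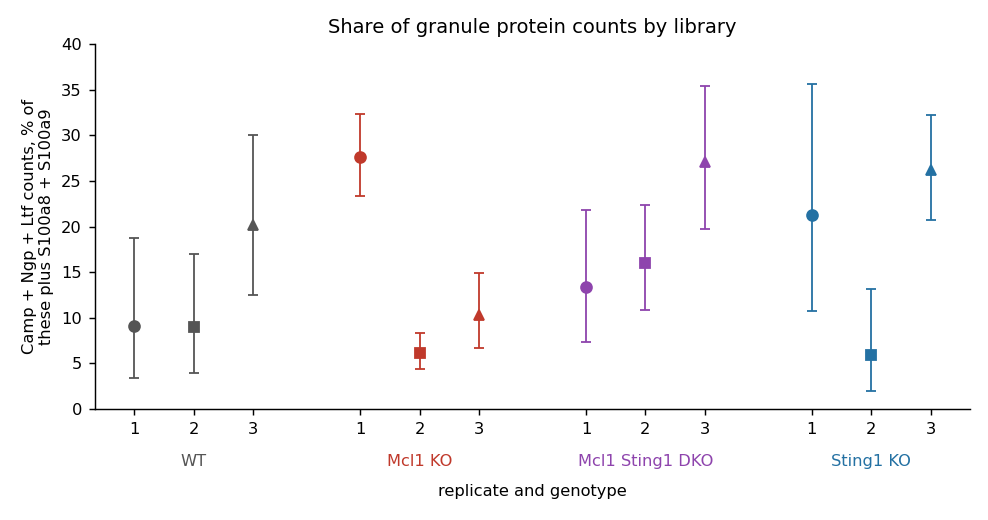
Share of Camp, Ngp and Ltf in the counts of these genes plus S100a8 and S100a9, in percent, for each of the 12 livers with its exact 95% interval for counting error. Mcl1 KO replicate 1 (27.7%) lies above replicates 2 and 3 (6.12 and 10.3%), and the 4 genotypes overlap.

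Other genes of neutrophil biology were followed in lists of granule, surface and recruitment genes. Of 5 further late granule genes, 3 were tested and 1 was called higher in Mcl1 KO than in WT livers, Cd177, a surface partner of proteinase 3 on neutrophils (log2 2.73, SE 0.66, edgeR adjusted p = 0.0165), with 0, 3 and 4 counts in WT and 25, 20 and 10 in Mcl1 KO livers. Cd177 reached the cutoff of the filter only in Mcl1 KO livers, so its passing was not independent of this direction. Olfm4, which marks a subset of neutrophils, was too low to be tested and had 0, 0 and 1 counts in WT against 21, 20 and 2 in Mcl1 KO livers, and 0 in all Mcl1 Sting1 DKO livers. Of 4 primary granule genes only Prtn3 was tested, and it differed by -0.36 (SE 0.70). The median of the 3 late granule genes was 0.79.

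Among 8 surface genes, 5 were tested and 2 were called higher in Mcl1 KO livers. They were Cxcr2, the receptor for CXC chemokines that guides neutrophils out of the marrow (1.73, SE 0.53, edgeR adjusted p = 0.0394), and Itgam, the alpha chain of the integrin Mac-1 (1.33, SE 0.33, edgeR adjusted p = 0.0175), which monocytes also carry. Fpr1, a receptor for bacterial formyl peptides, had 98 to 181 counts in WT and 121 to 222 in Mcl1 KO livers and differed by -0.03 (SE 0.24). The list's median was 0.95. In the list of mature neutrophil transcripts, 2 of 4 genes were tested and neither was called by edgeR or had an unadjusted p under 0.05. Wfdc21 differed by -0.51 (SE 0.34) and Hdc, the histidine decarboxylase that makes histamine, by 0.47 (SE 0.38). Wfdc21 had 7059 to 13970 counts in WT livers, where S100a9 had 30 to 41. Which cells held the Wfdc21 transcripts was not tested, so its value is not read as one of neutrophils. The other 2 genes of this list were too low to be tested. Asprv1 had 2, 1 and 0 counts in WT and 11, 27 and 9 in Mcl1 KO livers, and Stfa2l1 had 0 in each WT liver and 10, 4 and 3 in Mcl1 KO livers.

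Genes that form or attract neutrophils also differed. Spi1, which encodes PU.1, was the 1 gene called of 2 tested factors of granulocyte formation (log2 1.04, SE 0.18, edgeR adjusted p = 0.00455). The other, Cebpe, which drives late granule genes, had a negative difference that was not called (-1.08, SE 0.49, edgeR adjusted p = 0.130), with 74, 191 and 267 counts in WT and 99, 70 and 114 in Mcl1 KO livers. Csf3, the ligand of the Csf3r product, had 0 counts in all 12 libraries. Of 6 chemoattractant genes 3 were tested and 1 was called higher, Cxcl2, a ligand of the Cxcr2 product (3.66, SE 0.73, edgeR adjusted p = 0.00722), from 1, 1 and 2 counts in WT to 22, 30 and 8 in Mcl1 KO livers. Cxcl2 reached the cutoff of the filter only in Mcl1 KO livers, so its entry into the test was not independent of this direction. Cxcl1 differed by 1.34 (SE 0.61, edgeR adjusted p = 0.134) and Ppbp, a platelet chemokine, by -1.52 (SE 0.67, edgeR adjusted p = 0.122), with 97 of its 126 WT counts in WT replicate 2. All 5 adhesion genes were called higher, among them Sele, which encodes the E-selectin of activated endothelium (3.58, SE 0.73, edgeR adjusted p = 0.00806), Selp, its platelet and endothelial relative (1.41, SE 0.34, edgeR adjusted p = 0.0160), and Itgb2, the beta chain of Mac-1 (1.03, SE 0.22, edgeR adjusted p = 0.00949). Sele reached the cutoff of the filter only in Mcl1 KO livers and in Mcl1 Sting1 DKO replicate 1. The list medians were -0.02 for the factors, 1.34 for the chemoattractants and 1.03 for the adhesion genes. In Mcl1 Sting1 DKO against Mcl1 KO livers edgeR called no gene of these lists. An unadjusted edgeR p under 0.05 was found for 3 of 5 adhesion, 2 of 5 surface, 1 of 3 late granule and 1 of 3 chemoattractant genes. The same held for 1 of 2 factors, 0 of 2 mature neutrophil and 0 of 1 primary granule genes, and for 20.6% of all tested genes.

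Monocyte markers moved with the 9 genes, and Kupffer cell markers did so only in part. All 5 monocyte genes were called higher in Mcl1 KO than in WT livers (median log2 1.94), with Chil3 at 3.72 (SE 0.82, edgeR adjusted p = 0.0112), F13a1 at 2.48 and Ccr2, the receptor that brings monocytes into tissue, at 1.94. Their summed level was 9.22 to 13.3 CPM in WT, 27.2 to 70.2 in Mcl1 KO, 15.4 to 18.04 in Mcl1 Sting1 DKO and 9.92 to 14.7 in Sting1 KO livers, and it was highest in Mcl1 KO replicate 2, as S100a8 and S100a9 were. In Mcl1 Sting1 DKO against Mcl1 KO livers edgeR called 0 of the 5 monocyte genes. All 5 had a negative difference there (median log2 -1.31) and an unadjusted edgeR p under 0.05, against 20.6% of all tested genes in either direction. The part of monocytes in the values of S100a8, S100a9, Csf3r and Il1r2 was not tested. Of 5 Kupffer cell genes 2 were called higher (Marco at 2.09 and Cd5l at 0.67). The summed level of these 5 genes in Mcl1 KO livers (516 to 583 CPM) overlapped that in Mcl1 Sting1 DKO livers (492 to 588) and lay above WT (286 to 466) and Sting1 KO livers (374 to 504). In Mcl1 Sting1 DKO against Mcl1 KO livers the 5 Kupffer cell genes had a median log2 difference of -0.02, and 1 had an unadjusted edgeR p under 0.05.

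**Figure D5:**
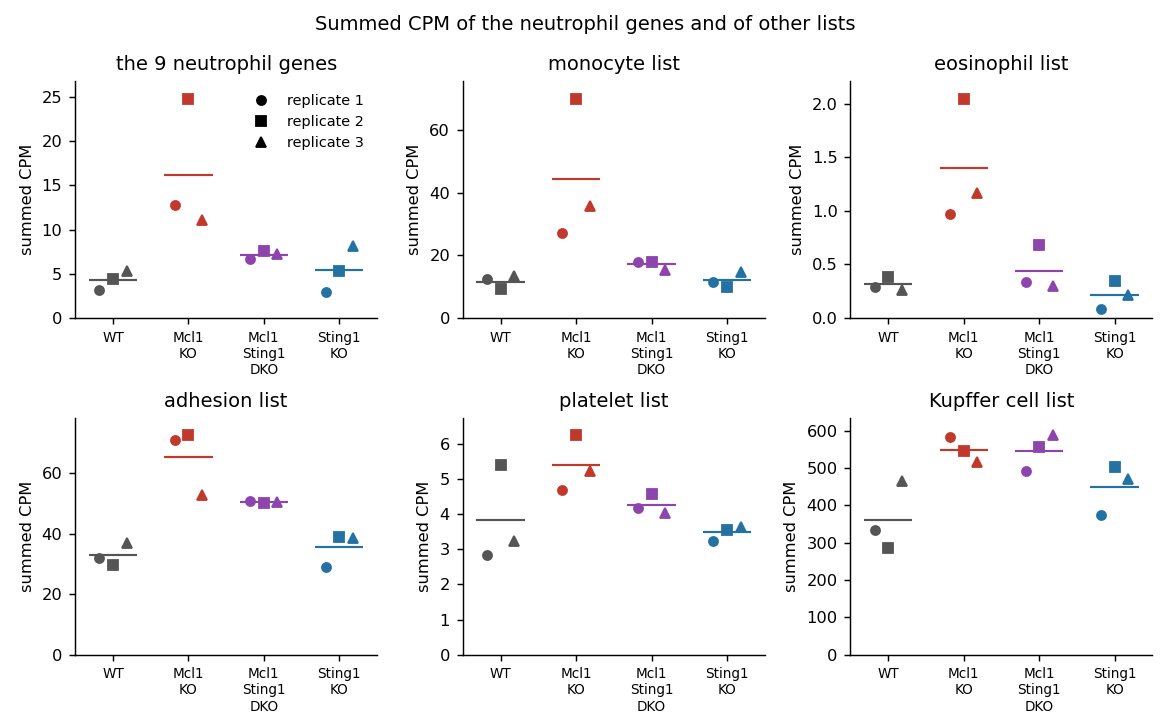
Summed CPM of the 9 genes and of 5 other lists by genotype, with 1 marker per liver shaped by its replicate number and a line for the mean. The monocyte list (27.2 to 70.2 CPM in Mcl1 KO livers), the adhesion list and the Kupffer cell list have the same order of group means as the 9 genes. Kupffer cell genes do not separate Mcl1 KO from Mcl1 Sting1 DKO livers (means of 548 and 546 CPM).

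The genes whose levels were most like those of the 8 tested genes over the 12 libraries (Pearson's r between log2 CPM and the mean standardised log2 CPM of the 8) were Lsp1 (r = 0.960), Ly6c2 (0.944), Spi1 (0.937), Gm57857 (0.935) and Cd177 (0.927). The 12 libraries share genotype, depth and handling, so these values are descriptions. Lsp1, a leukocyte actin-binding protein, had 3.56 to 4.95 CPM in WT, 9.39 to 13.7 in Mcl1 KO, 5.45 to 6.28 in Mcl1 Sting1 DKO and 3.23 to 5.65 in Sting1 KO livers. Ly6c2 encodes a surface protein of inflammatory monocytes and had 0.415 to 1.09, 1.93 to 3.09, 0.902 to 1.34 and 0.611 to 1.30 CPM in the same order.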

How the data were processed

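Total RNA of 12 mouse livers was sequenced on an Illumina NovaSeq. The authors deposited raw read counts per Ensembl gene, 1 column of whole numbers per library. The submitters' processing notes name STAR, featureCounts and GRCm39, and versions and strand setting are not given in the sources used here. The labels and the study's methods name different RNeasy extraction kits. Samples were grouped by the genotype label, and nothing says whether livers of a group shared a litter, so p-values measure the spread between these livers.

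Library scaling (TMM), CPM and all main tests used edgeR 4.0.16 (filterByExpr by genotype with its minimum count of 10, glmQLFit, glmQLFTest, prior count of 2 for log2 CPM) in R 4.3.3. All 12 libraries entered 1 model without covariates, p-values were adjusted by the Benjamini-Hochberg method over 15070 genes, and the threshold was 0.05. TPM used summed exon lengths of GENCODE vM39. Shares and count ratios carry exact (Clopper-Pearson) 95% intervals, computed with scipy 1.17.1. All scripts that fit models were tested on simulated data. No pair of livers of 1 genotype was close enough to be 1 library deposited more than once (chi-square over degrees of freedom 40.9 or more).

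The 9 genes and all lists were chosen with earlier results of these data known. Named are the 9 genes, Mcl1 and Sting1, the 5 genes most like the 9, and from each list up to 3 called genes with the largest change or, with none called, up to 2 with the highest CPM. Ly6g, Olfm4, Fpr1, Csf3, Asprv1, Stfa2l1, Cebpe, Cxcl1, Ppbp and the primary granule genes were named after their values were seen. Alternatives were DESeq2 1.42.0, RLE factors, library totals, other filters, 2 groups only, covariates for Y-linked expression and for small structured RNAs, a block for the replicate number, and fits without each library in turn.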

Additional observations from a re-analysis of the deposited data

How the results depend on the processing

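The 5 calls of Mcl1 KO against WT livers became 3 with Y-linked expression as a covariate and 0 with the small structured RNA share as a covariate, and 2 to 6 without 1 library. The other settings gave 4 to 6. The 6 calls of the mean over both backgrounds became 1 with the small structured RNA covariate and 1 to 5 without 1 library. Mcl1 Sting1 DKO against Mcl1 KO livers had 0 calls, 2 by DESeq2 and 0 to 3 without 1 library. The interaction had 0 calls, and 0 to 1 without 1 library. Mcl1 Sting1 DKO against Sting1 KO and Sting1 KO against WT had 0 calls in all settings. The cause of these changes was not tested.

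Library totals without TMM factors moved the median of all genes by 0.19 in Mcl1 KO against WT livers (log2), gave 6 calls there, and changed the split over all genes from 1629 higher and 1421 lower to 2591 and 640. Directions turned in 3 gene values outside the fits that left out a library. With the small structured RNA covariate, Sting1 KO against WT gave -0.16 for S100a8 and 0.00 for Ltf. Without 1 library, 13 values turned, and their ranges over these fits follow. In Sting1 KO against WT they were -0.61 to 0.40 for S100a8 (-0.06 without WT replicate 1), -0.22 to 0.75 for S100a9, -0.15 to 0.79 for Retnlg, -0.44 to 2.97 for Ngp and -1.12 to 0.39 for Ltf. In Mcl1 Sting1 DKO against Mcl1 KO they were -0.34 to 0.01 for Csf3r and -1.13 to 0.05 for Ngp. In Mcl1 Sting1 DKO against Sting1 KO they were -0.24 to 0.73 for S100a9, -0.81 to 1.46 for Ngp and -2.20 to 0.16 for Camp, and in the interaction -1.15 to 0.37 for Ltf. The muscle gene Mylpf in Mcl1 KO against WT had -0.28 to 6.14, the low end without Mcl1 KO replicate 3.

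Whether replicate numbers pair the livers was not settled. Deviations of same-numbered livers from their group means correlated at -0.54 to 0.25 over 18 pairs, 3 of them above 0.1. Replicates 1 to 3 of Mcl1 Sting1 DKO and Sting1 KO livers gave 0.068, 0.251 and 0.180. Livers of unlike number were not compared, so these values cannot exclude a pairing. With the replicate block, Mcl1 KO against WT gave 4 calls, the mean over both backgrounds 5 and every other comparison 0, and Ngp in Mcl1 Sting1 DKO against Sting1 KO stood at 0.01.

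The stricter filter (10 counts in 6 libraries) kept 5 of the 9 genes and removed Mmp8, Camp, Ngp and Il1r2. Depth limited Camp, Mmp8, Ngp, Ltf and Il1r2, which had 0 to 10 counts in each WT liver.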

Other observations

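Signs of granulocytes other than neutrophils were also looked for. Siglecf, a surface lectin of eosinophils, had 10, 9 and 3 counts in WT, 41, 59 and 34 in Mcl1 KO, 8, 25 and 7 in Mcl1 Sting1 DKO, and 3, 13 and 7 in Sting1 KO livers. It rose 5.73-fold in Mcl1 KO against WT livers (log2 2.52, SE 0.57, edgeR adjusted p = 0.0127), and Mcl1 KO livers lay above all others. The eosinophil granule genes Epx and Prg2 had 0 to 3 and 0 to 8 counts per library and were not tested. No gene of the basophil and mast cell list reached the filter.

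Pf4, a chemokine stored in platelets, was the 1 gene called of 3 tested platelet genes (log2 1.27, SE 0.38, edgeR adjusted p = 0.0347), with 34, 38 and 15 counts in WT and 62, 95 and 62 in Mcl1 KO livers. The 5 tested red cell genes had a median log2 difference of -0.32 in the same comparison. An unadjusted edgeR p under 0.05 was found for 1 of these 5 and for 5558 of all 15070 tested genes.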
